A study of Mus musculus with 12 samples.

Results

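Chemokine and chemoattractant receptors, which steer leukocyte movement, were followed in bone marrow-derived macrophages (BMDM), namely the CC chemokine receptors *Ccr1*, *Ccr2*, *Ccr3* and *Ccr7*, the atypical receptor *Ccrl2*, the receptors *Cx3cr1* and *Cxcr4*, and the formyl peptide receptors *Fpr1* and *Fpr2*. They were chosen by symbol and make up 9 of the 43280 genes in the deposited table. All 9 passed the filter on low values, at least 1 CPM (reads scaled to library size, 1 read being 0.0171 to 0.0208 CPM) in at least 2 of the 12 libraries, as did 12086 genes in all. The cells came from wild type (wt) mice and from mice without *Treml4* (*Treml4-/-*), a receptor of the TREM family, all with the background strain C57BL6. Bone marrow was grown with 20 ng/ml mouse M-CSF, the growth factor that turns marrow cells into macrophages, and then received PBS vehicle (M0) or lipopolysaccharide at 100 ng/ml (LPS), the endotoxin of Gram-negative bacteria, for 8 h or 12 h. Each of the 6 groups, wt and *Treml4-/-* cells at M0, LPS 8 h and LPS 12 h, had 2 biological replicates. How long the vehicle was left on the M0 cells, and whether replicates came from different mice, is not given in the sources used here. The *Treml4-/-* mice came from another laboratory. The cells were sequenced in bulk, so a lower level can mean fewer expressing cells or less RNA per cell, which cannot be told apart.

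Chemokines are small secreted proteins that guide cells along gradients, and their receptors are G protein-coupled receptors with 7 membrane-spanning segments that act through inhibitory G proteins. *Ccr1* binds *Ccl3*, *Ccl5* and related inflammatory chemokines, *Ccr2* binds *Ccl2* and brings monocytes out of the marrow, and *Ccr3* is the eotaxin receptor of eosinophils. *Ccr7* guides activated dendritic cells and lymphocytes to lymph nodes through *Ccl19* and *Ccl21*. *Ccrl2* binds chemerin, the product of *Rarres2*, without G protein signalling and presents it to neighbouring cells. *Cx3cr1*, the receptor of fractalkine, is a hallmark of tissue macrophages and patrolling monocytes, and *Cxcr4*, the receptor of *Cxcl12*, holds leukocytes in the marrow. *Fpr1* and *Fpr2* detect formylated peptides from bacteria and mitochondria, and *Fpr2* also binds serum amyloid A and annexin A1.

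In the GENCODE M21 annotation of GRCm38 (mm10), 5 of the 9 genes lie on chromosome 9. *Ccr1* (123962124 to 123968692, minus strand), *Ccr3* (124021972 to 124031689, plus strand) and *Ccr2* (124101950 to 124113557, plus strand) sit together within 151 kb. *Ccrl2* (111054486 to 111057519, minus strand) and *Cx3cr1* (119901616 to 120069879, minus strand) lie elsewhere on chromosome 9, and *Cx3cr1* shares an exonic stretch with the antisense gene *Gm33858*. *Fpr1* (17876471 to 17883940, minus strand) and *Fpr2* (17887824 to 17893952, plus strand) are neighbours within 17.5 kb of chromosome 17, and *Treml4* lies 30.4 Mb away on the same chromosome. *Ccr7* is on chromosome 11 from 99144196 to 99155077 (minus strand), and *Cxcr4* is on chromosome 1 from 128588199 to 128592293 (minus strand). *Fpr2* also overlaps an exon of *Fpr3*, and 12.3% of its 100-base stretches also occur in *Gm5966*, and how the counting assigned such reads is not given in the sources used here. The largest such share among the other 8 receptors was 0.790%.

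The 250 bases before the transcription start are shown for the pair with the highest log2(CPM + 1) changes at LPS 8 h, *Ccrl2* and *Fpr2*, and for the pair with the lowest, *Cxcr4* and *Cx3cr1*, as examples of both directions. RefSeq (GRCm38.p6) held promoter sequence for 8 of the 9 receptors. Each sequence runs 5′ to 3′ on the gene's own strand and ends at the base before the start, and capitals mark a match to one of 5 short motifs searched on both strands. The intervals are chr9:111057519-111057768 (minus strand, the most upstream of 3 starts) for *Ccrl2*, chr17:17887574-17887823 (plus strand) for *Fpr2*, chr1:128592300-128592549 (minus strand) for *Cxcr4* and chr9:120068297-120068546 (minus strand) for *Cx3cr1*.
Ccrl2: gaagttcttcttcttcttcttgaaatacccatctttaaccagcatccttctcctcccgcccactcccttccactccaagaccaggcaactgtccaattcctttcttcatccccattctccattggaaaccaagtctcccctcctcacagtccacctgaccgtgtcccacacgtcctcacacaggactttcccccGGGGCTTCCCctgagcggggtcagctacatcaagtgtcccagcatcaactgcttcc
Fpr2: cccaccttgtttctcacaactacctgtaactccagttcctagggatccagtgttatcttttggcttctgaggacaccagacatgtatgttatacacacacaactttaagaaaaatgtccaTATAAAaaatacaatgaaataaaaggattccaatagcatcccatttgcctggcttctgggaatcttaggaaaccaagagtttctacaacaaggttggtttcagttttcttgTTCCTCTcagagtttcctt
Cxcr4: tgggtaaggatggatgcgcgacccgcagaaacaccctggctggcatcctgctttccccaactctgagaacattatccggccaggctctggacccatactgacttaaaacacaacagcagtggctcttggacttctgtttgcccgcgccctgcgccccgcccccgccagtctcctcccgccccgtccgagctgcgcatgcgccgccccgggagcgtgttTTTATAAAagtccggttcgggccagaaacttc
Cx3cr1: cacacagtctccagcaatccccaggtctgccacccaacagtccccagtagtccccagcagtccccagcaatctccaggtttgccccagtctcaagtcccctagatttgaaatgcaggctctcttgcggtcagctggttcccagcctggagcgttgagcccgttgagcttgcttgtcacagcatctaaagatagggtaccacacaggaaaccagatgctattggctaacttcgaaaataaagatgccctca

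In *Ccrl2* the capitals are a match to the NF-kB consensus, GGGGCTTCCC, at 56 to 47 bases before the start, and the other *Ccrl2* starts had no match to any of the 5 motifs. Matches to the NF-kB consensus were also present in *Ccr1* (GGGAGGCTCC, 74 to 65 bases before the start) and in *Ccr3* (GGAAATTCCC, 179 to 170 bases before the start). Over all 27018 promoters of the same length, 7.01% held such a match. The capitals in *Fpr2* are the TATA letters TATAAA at 130 to 125 bases and, on the opposite strand, the PU.1 letters AGAGGAA at 19 to 13 bases before the start. *Cxcr4* had TATAAA at 30 to 25 bases before the start, overlapped by a match on the other strand at 32 to 27 bases. *Fpr1* had TATAAA at 227 to 222 bases, while *Ccr3* held the AP-1 letters TGANTCA at 144 to 138 bases and AGAGGAA at 182 to 176 bases, where it overlapped the NF-kB match. TATAAA was present in 12.97% of all promoters, AGAGGAA in 8.65%, TGANTCA in 6.87% and the C/EBP letters TTGCNNAA in 9.56%. No match to any of the 5 motifs was found in these windows of *Cx3cr1* or *Ccr2*, and none of the 8 receptors held the C/EBP letters. Windows were set by RefSeq starts, and that of *Cx3cr1* lies inside the gene as GENCODE places it (119901616 to 120069879). The *Ccr2* window (124101933 to 124102182) covers the GENCODE start at 124101950. All matches given here describe letters in a window and not binding.

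Library depth was even, with 48008751 to 58500792 reads on genes, so that 3 reads corresponded to at most 0.0625 CPM. *Treml4* had 198 to 663 reads in the 6 wt libraries and 0 in the 6 *Treml4-/-* libraries. All 9 macrophage markers on a fixed list, among them *Csf1r* and *Lyz2*, were above 1 CPM in every library, and their summed level was 20952 to 28173 CPM at M0, 10421 to 13501 CPM at LPS 8 h and 10074 to 11251 CPM at LPS 12 h. All 6 lymphocyte markers stayed under 1 CPM in every library. Differences were tested with limma on log2(CPM + 1), on which the folds of genes with few reads come out smaller than they were, and a gene was called when its Benjamini-Hochberg adjusted p was under 0.05 and its fold change at least 1.4. Library-size scaling put the median log2 fold change of all genes tested at -0.72 at LPS 8 h and -0.76 at LPS 12 h, and each receptor's change is therefore also given relative to that median. Both LPS times were compared with the same 4 M0 libraries. Of the 9 macrophage markers, 3 were called higher and 4 lower at LPS 8 h, and likewise at LPS 12 h. Over all genes tested 17.1% were called higher and 59.8% lower at LPS 8 h, and 16.3% and 60.3% at LPS 12 h. In wt cells the mean of *Lyz2* was 14030 CPM at M0 and 5760 CPM at LPS 8 h. That of *Fcgr1* went the other way, from 62.3 to 1250 CPM.

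The receptor that made up most of the summed level of these 9 transcripts at M0 made up little of it after LPS. In RPKM, the CPM divided by exon length in kilobases (GENCODE exons), *Cxcr4* alone made up 80.4% to 82.0% of the summed level of the 9 receptors in the 4 M0 libraries, followed by *Cx3cr1* with 6.77% to 9.03%. After 8 h of LPS *Cxcr4* was down to 0.149% to 0.198% of the sum, and *Ccrl2* (42.1% to 52.6%), *Fpr2* (28.8% to 34.7%) and *Fpr1* (10.2% to 10.7%) led in each library. After 12 h the leading receptor was *Fpr2* (35.4% to 38.8%), ahead of *Ccrl2* (26.9% to 32.0%), *Fpr1* (15.9% to 17.2%) and *Ccr1* (9.08% to 14.6%). That lead depended on the division by exon length, since in CPM *Ccrl2* (270 to 379) lay above *Fpr2* (174 to 230) at LPS 12 h. The summed level of the 9 receptors was 192 to 203 RPKM at M0, 409 to 503 RPKM at LPS 8 h and 362 to 457 RPKM at LPS 12 h.

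**Figure D1:**
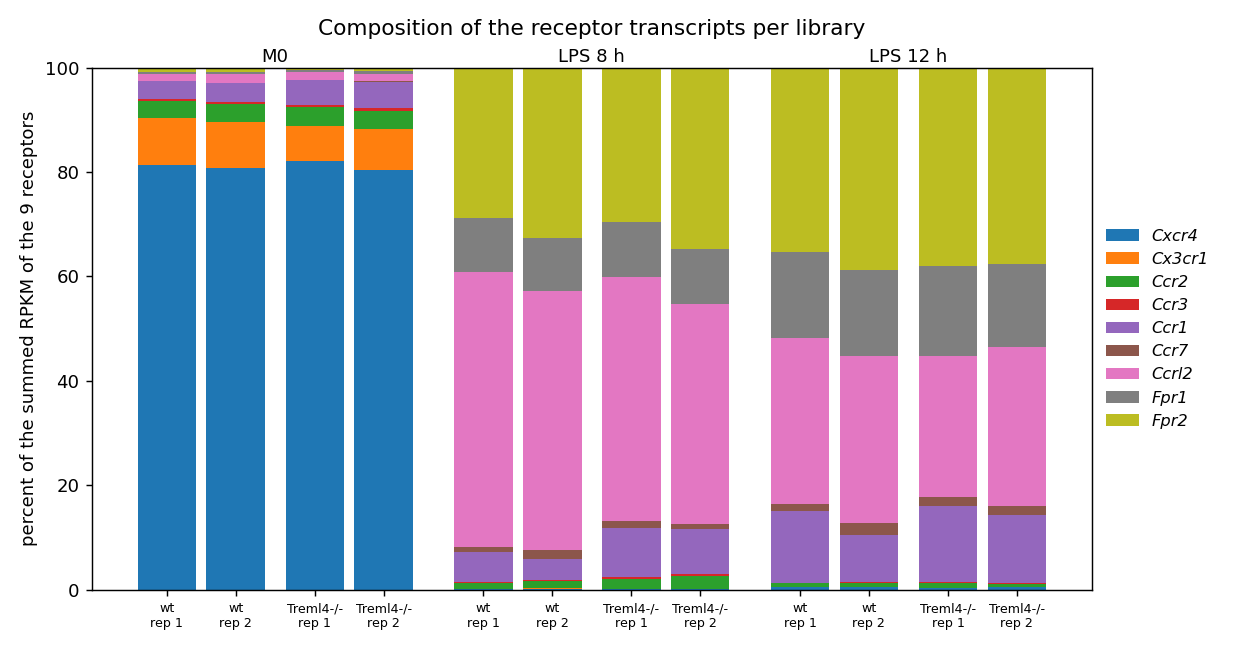
Share of each receptor in the summed RPKM of the 9 receptors (vertical axis, percent), with 1 bar for each of the 12 libraries, grouped by time and genotype (rep, replicate). *Cxcr4* fills 80.4% to 82.0% of each M0 bar, and *Ccrl2*, *Fpr2* and *Fpr1* fill most of each LPS bar.

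The order of RPKM levels at M0 was *Cxcr4*, *Cx3cr1*, *Ccr1*, *Ccr2*, *Ccrl2* and *Fpr2* in all 4 libraries, with *Fpr1* and *Ccr3* exchanging the next ranks and *Ccr7* last. *Ccr1* (6.94 to 9.88 RPKM) and *Ccr2* (6.58 to 7.18 RPKM) overlapped in range at M0 and were not separated by their spread. The order at LPS 8 h was *Ccrl2*, *Fpr2*, *Fpr1* and *Ccr1*, while *Ccr7* and *Ccr2* exchanged ranks between libraries, as did *Ccr3* and *Cxcr4*, and *Cx3cr1* was last. All 4 libraries at LPS 12 h had the order *Fpr2*, *Ccrl2*, *Fpr1*, *Ccr1*, *Ccr7*, *Ccr2*, *Cxcr4*, *Ccr3* and *Cx3cr1*, although the ranges of *Fpr2* (134 to 177 RPKM) and *Ccrl2* (104 to 146 RPKM) overlapped.

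Of the 9 receptors, 5 rose and 2 fell at LPS 8 h, beside 17.1% of all genes tested called higher and 59.8% called lower. After 12 h 5 rose and 3 fell, where 16.3% of all genes were called higher and 60.3% lower. Receptors called higher at both times were *Fpr1*, *Fpr2*, *Ccrl2*, *Ccr7* and *Ccr1*, and those called lower at both were *Cxcr4* and *Cx3cr1*, with *Ccr2* joining them at LPS 12 h. The median log2 fold change of the 9 was 1.79 at LPS 8 h and 2.51 at LPS 12 h. The split over all genes depended on scaling, and with median of ratios scaling 31.7% were called higher and 30.6% lower at LPS 8 h, and 33.4% and 31.8% at LPS 12 h. The 7 receptors called at LPS 8 h kept their direction and call under each scaling run, and the exceptions among the other 2 are given with their values.

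**Figure D2:**
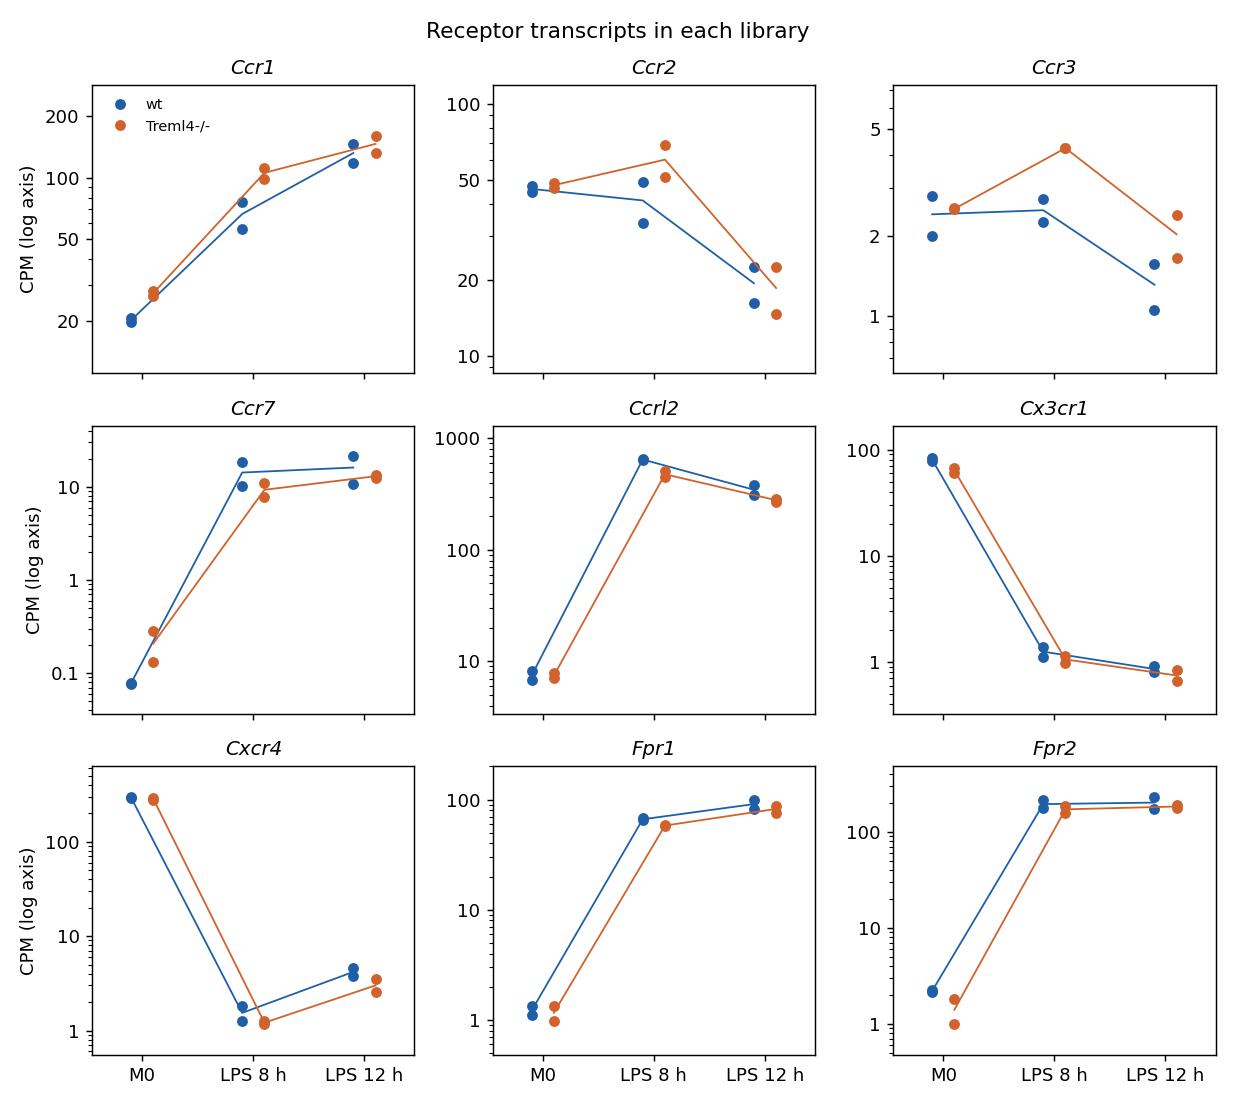
CPM of each receptor (vertical axis, log scale, with its own range in each panel) at M0, LPS 8 h and LPS 12 h. Points are libraries and lines join the means of 2 replicates, blue for wt and orange for *Treml4-/-*. *Cxcr4* and *Cx3cr1* fall from M0 in all LPS libraries, while *Fpr1*, *Fpr2*, *Ccrl2*, *Ccr7* and *Ccr1* rise.

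*Fpr2*, the promiscuous formyl peptide receptor, had 2.14 and 2.24 CPM in the wt and 0.998 and 1.80 CPM in the *Treml4-/-* libraries at M0. After 8 h of LPS it had 176 and 213 CPM in wt and 159 and 184 CPM in *Treml4-/-* cells, and at LPS 12 h 174 and 229.5 CPM in wt and 191 and 176 CPM in *Treml4-/-* cells. Every LPS library lay far above every M0 library, and the LPS times overlapped. Its mean was 102-fold higher at LPS 8 h and 107-fold higher at LPS 12 h, with log2 fold changes of 6.06 ± 0.12 (SE, adjusted p = 2.2e-12) and 6.13 ± 0.12 (SE, adjusted p = 2.2e-12). Relative to the median gene the log2 fold changes were 6.78 and 6.89. Its overlapping neighbour *Fpr3* did not pass the filter on low values.

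*Fpr1*, the high-affinity formyl peptide receptor, had 1.33 and 1.10 CPM in wt and 0.978 and 1.35 CPM in *Treml4-/-* cells at M0. It reached 64.7 and 67.8 CPM in wt and 58.2 and 57.9 CPM in *Treml4-/-* cells at LPS 8 h, and 82.4 and 99.4 CPM and 88.3 and 76.3 CPM at LPS 12 h. All 4 libraries at LPS 12 h lay above all 4 at LPS 8 h, which lay above M0. The rise was 52.2-fold (log2 4.85 ± 0.09 SE, adjusted p = 1.2e-12) and then 72.8-fold (log2 5.32 ± 0.09 SE, adjusted p = 7.0e-13). Within *Treml4-/-* cells the log2 step from LPS 8 h to LPS 12 h was 0.49 and called, and within wt cells it was 0.45 and not called. The step over both genotypes, 0.47 ± 0.09 SE on the log2 scale (adjusted p = 9.5e-04), missed the required fold change of 1.4. It passed with median of ratios scaling (0.52) or quantile normalization (0.51), and without wt LPS 8 h replicate 2 (0.49), wt LPS 12 h replicate 1 (0.54) or *Treml4-/-* LPS 12 h replicate 2 (0.52).

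Neutrophils are rich in formyl peptide receptors, so neutrophil markers were measured beside them. Of 8 markers, *Ly6g* and *Retnlg* stayed under 1 CPM in every library, with at most 7 *Ly6g* reads, and 6 were tested. Among the 6, *S100a8* was called higher and 4 lower at LPS 8 h, and 1 was higher and 5 lower at LPS 12 h. Their median log2 fold change was -0.95 and then -1.98. With median of ratios scaling 1 was higher and 1 lower at LPS 8 h, and 1 higher and 4 lower at LPS 12 h. Their summed level was 46.9 to 155 CPM at M0, 70.3 to 106 CPM at LPS 8 h and 47.8 to 65.9 CPM at LPS 12 h, and their part in the rise of *Fpr1* and *Fpr2* was not tested.

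*Ccrl2*, which presents chemerin without signalling itself, had 6.77 and 8.12 CPM in wt and 7.80 and 7.05 CPM in *Treml4-/-* cells at M0. It had 644 and 647 CPM in wt and 504 and 448 CPM in *Treml4-/-* cells at LPS 8 h, and 312 and 379 CPM and 270.3 and 287 CPM at LPS 12 h. Thus the highest level was at LPS 8 h in both genotypes, and no library at LPS 12 h reached any at LPS 8 h. The mean was 75.4-fold higher at LPS 8 h (log2 6.04 ± 0.08 SE, adjusted p = 1.1e-13) and 42.0-fold higher at LPS 12 h (log2 5.21 ± 0.08 SE, adjusted p = 3.9e-13). Between these times it fell by 0.84 on the log2 scale (SE 0.08, adjusted p = 6.5e-06). At LPS 8 h 99.4% of all genes tested had a smaller log2 fold change.

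*Ccr7*, the lymph node homing receptor, was near the limit of detection at M0, with 4 and 4 reads in wt and 14 and 7 reads in *Treml4-/-* cells, or 0.0771 to 0.285 CPM. LPS for 8 h gave 10.2 and 18.3 CPM in wt and 10.9 and 7.72 CPM in *Treml4-/-* cells, and LPS for 12 h gave 10.8 and 21.5 CPM and 13.5 and 12.5 CPM. At both LPS times the wt replicates differed from each other by more than the genotypes did in their means. The mean was 82.5-fold higher at LPS 8 h and 102-fold higher at LPS 12 h, where log2(CPM + 1) rose by only 3.43 ± 0.21 (SE, adjusted p = 2.0e-08) and 3.73 ± 0.21 (SE, adjusted p = 8.9e-09). From LPS 8 h to LPS 12 h the log2 difference was 0.30 ± 0.21 (SE, adjusted p = 0.236), which became 0.54 and was called without wt LPS 12 h replicate 1. Of 6 dendritic cell markers listed beside *Ccr7*, *Flt3*, *Zbtb46*, *Cd209a* and *Itgae* stayed under 1 CPM in every library, and *Xcr1* and *Clec9a* were called higher at both times. These 2, like *Ccr7*, were under 1 CPM at M0 and passed the filter only through LPS libraries. A call of higher was thus close to fixed by the filter. The mean of *Flt3*, not tested, went from 0.447 to 0.132 CPM in wt and from 0.590 to 0.126 CPM in *Treml4-/-* cells at LPS 8 h. The summed level of the 6 markers was 0.806 to 1.06 CPM at M0, 6.21 to 9.21 CPM at LPS 8 h and 4.78 to 8.53 CPM at LPS 12 h, and their part in the *Ccr7* result was not tested.

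*Ccr1*, the receptor of *Ccl3* and *Ccl5*, had 19.7 and 20.6 CPM in wt and 26.5 and 28.0 CPM in *Treml4-/-* cells at M0. It had 76.4 and 56.4 CPM in wt and 112 and 99.1 CPM in *Treml4-/-* cells at LPS 8 h, and 146 and 117 CPM and 159.8 and 133 CPM at LPS 12 h. The level rose with each time, without overlap between times. Its mean was 3.63-fold higher at LPS 8 h (log2 1.79 ± 0.11 SE, adjusted p = 1.6e-08) and 5.87-fold higher at LPS 12 h (log2 2.51 ± 0.11 SE, adjusted p = 8.7e-10). The further rise from LPS 8 h to LPS 12 h was 0.73 ± 0.11 (SE) on the log2 scale (adjusted p = 1.6e-04). Within wt cells it was 0.99 (limma adjusted p = 3.8e-04) and called. Within *Treml4-/-* cells it was 0.46 (adjusted p = 0.028) and missed the minimum fold. The difference between these 2 steps was not tested.

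*Cxcr4*, the marrow retention receptor, was the most abundant of the 9 at M0, with 299 and 289.9 CPM in wt and 291 and 279.7 CPM in *Treml4-/-* cells. Only 1.27 and 1.80 CPM remained in wt and 1.25 and 1.17 CPM in *Treml4-/-* cells at LPS 8 h, or 63 to 97 reads per library. By 12 h it had risen to 3.82 and 4.55 CPM in wt and 2.54 and 3.47 CPM in *Treml4-/-* cells, still far below M0. The 3 times did not overlap, and the M0 replicates differed little. The mean was 211-fold lower at LPS 8 h (log2 -6.94 ± 0.10 SE, adjusted p = 1.8e-13) and 80.7-fold lower at LPS 12 h (log2 -6.003 ± 0.10 SE, adjusted p = 6.1e-13). No other gene of the 12086 tested had a more negative log2 fold change at LPS 8 h. The rise from LPS 8 h to LPS 12 h, 0.94 ± 0.10 (SE) on the log2 scale, was called (adjusted p = 1.3e-05).

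*Cx3cr1*, the fractalkine receptor, had 82.6 and 78.2 CPM in wt and 59.9 and 67.8 CPM in *Treml4-/-* cells at M0. It was at 1.11 and 1.39 CPM in wt and 1.15 and 0.970 CPM in *Treml4-/-* cells at LPS 8 h, and at 0.806 and 0.913 CPM and 0.833 and 0.660 CPM at LPS 12 h. Like *Cxcr4* it fell in every LPS library, but unlike *Cxcr4* it did not rise from LPS 8 h to LPS 12 h. The mean was 62.5-fold lower at LPS 8 h (log2 -5.08 ± 0.09 SE, adjusted p = 6.6e-13) and 89.8-fold lower at LPS 12 h (log2 -5.33 ± 0.09 SE, adjusted p = 5.0e-13). The difference between the LPS times was -0.26 ± 0.09 (SE) on the log2(CPM + 1) scale and missed the minimum fold. It was called on the deposited log2 CPM (-0.52) and with voom (-0.53).

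*Ccr2*, the receptor of *Ccl2*, had 44.5 and 47.4 CPM in wt and 48.6 and 46.5 CPM in *Treml4-/-* cells at M0. *Ccr2* at LPS 8 h had 33.7 and 48.9 CPM in wt and 51.3 and 68.8 CPM in *Treml4-/-* cells, on both sides of the M0 range. After 12 h it had 16.2 and 22.5 CPM in wt and 22.4 and 14.7 CPM in *Treml4-/-* cells, below all libraries of the other times. The log2 fold change was 0.07 ± 0.16 (SE, adjusted p = 0.676) at LPS 8 h, with a 95% interval of -0.28 to 0.43. At LPS 12 h *Ccr2* fell by 1.28 on the log2 scale (SE 0.16, adjusted p = 1.2e-05), a level 2.46-fold lower. These calls depended on scaling, and relative to the median gene the changes were 0.80 and -0.52. With median of ratios scaling *Ccr2* was called higher at LPS 8 h (0.88) and was not called at LPS 12 h (-0.43), and with quantile normalization it was called higher at LPS 8 h (0.55). The decline from LPS 8 h to LPS 12 h, 1.35 ± 0.16 (SE) on the log2 scale in size, was called under every scaling run (adjusted p = 3.0e-05).

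*Ccr3*, the eotaxin receptor, was a weak transcript with 53 to 247 reads per library. It had 1.99 and 2.81 CPM in wt and 2.51 and 2.53 CPM in *Treml4-/-* cells at M0, and 2.72 and 2.25 CPM in wt and 4.22 and 4.24 CPM in *Treml4-/-* cells at LPS 8 h. The values at LPS 12 h were 1.57 and 1.05 CPM in wt and 2.40 and 1.65 CPM in *Treml4-/-* cells. Its ranges overlapped between any 2 of the 3 times. The log2 fold changes were 0.31 ± 0.12 (SE, adjusted p = 0.0268) at LPS 8 h and -0.39 ± 0.12 (SE, adjusted p = 0.00792) at LPS 12 h, and both missed the minimum fold. Relative to the median gene they were 1.03 and 0.36. *Ccr3* was called higher at LPS 8 h with median of ratios scaling (0.89) or quantile normalization (1.04), and lower at LPS 12 h with a pseudocount of 0.1 (-0.58), the deposited log2 CPM (-0.61) or voom (-0.61). It declined by 0.70 on the log2 scale between LPS 8 h and LPS 12 h (SE 0.12, adjusted p = 3.7e-04). Of 7 mast cell, basophil and eosinophil markers, *Mcpt4* and *Fcer1a* had no reads and *Siglecf* alone passed 1 CPM. Their summed level was 6.87 to 8.87 CPM at M0, 3.90 to 4.96 CPM at LPS 8 h and 1.93 to 2.56 CPM at LPS 12 h, lower at each time, and its part in the result was not tested.

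**Figure D3:**
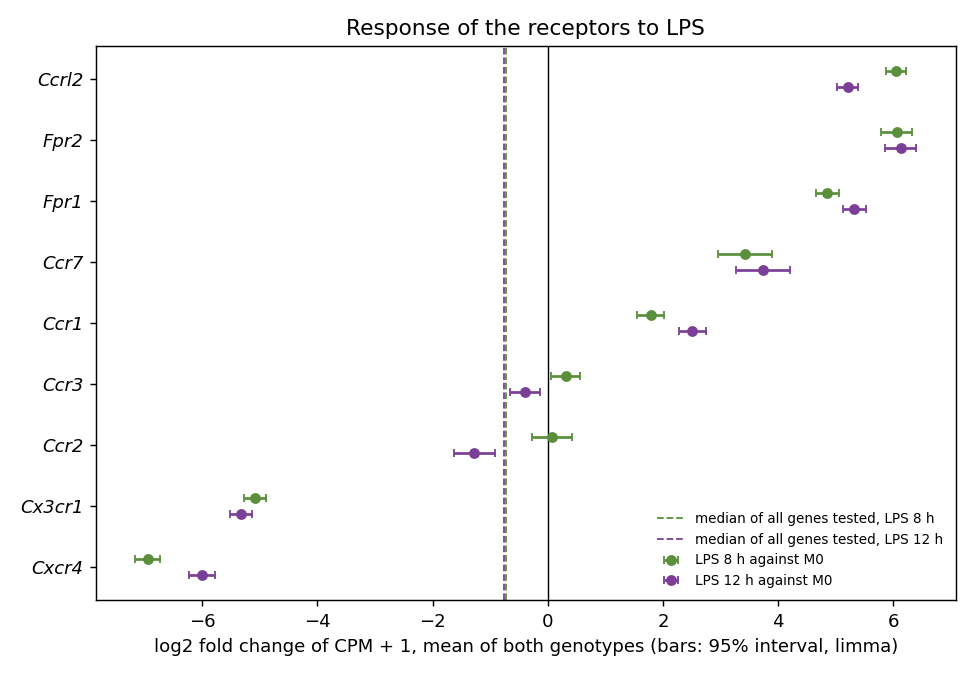
Log2 fold change of CPM + 1 (horizontal axis) for each receptor at LPS 8 h and LPS 12 h against M0, mean of both genotypes, with 95% intervals from limma. Dashed lines mark the median of all genes tested (-0.72 and -0.76), and *Ccr2* and *Ccr3* lie nearest to it while the other 7 lie far to either side.

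Between the 2 LPS times, 2 of the 9 receptors were called higher at LPS 12 h (*Ccr1* and *Cxcr4*) and 3 lower (*Ccr2*, *Ccr3* and *Ccrl2*), where 13.5% of all genes tested were called higher and 18.7% lower. The 4 receptors not called were *Ccr7*, *Cx3cr1* and *Fpr1*, described above, and *Fpr2*, whose log2 difference was 0.07 with a 95% interval of -0.20 to 0.34. Within 1 genotype the LPS responses had the same direction as their mean for the 7 receptors called at LPS 8 h. *Ccrl2* rose by 6.26 in wt and 5.82 in *Treml4-/-* cells at LPS 8 h on the log2 scale, and *Ccr7* by 3.77 and 3.08. *Cxcr4* changed by -6.87 in wt and -7.02 in *Treml4-/-* cells, and *Cx3cr1* by -5.18 and -4.98. For *Ccr3* the LPS 8 h response was called within *Treml4-/-* cells (0.57, adjusted p = 0.00707) and was 0.04 in wt (adjusted p = 0.812), while the difference between these responses was not called. *Ccr3* at LPS 12 h was called lower within wt (-0.55, adjusted p = 0.00846) and was -0.23 in *Treml4-/-* cells (adjusted p = 0.215), and *Ccr2* was called lower in both, at -1.22 in wt and -1.34 in *Treml4-/-* cells.

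The other receptors of these families also moved with LPS, in both directions. Of 15 other chemokine receptors 4 passed the filter, and 2 were called higher and 2 lower at both LPS times. Their median log2 fold change was 0.81 at LPS 8 h and -0.02 at LPS 12 h, where it was 0.27 with median of ratios scaling. *Ccr9*, a gut homing receptor, rose by 2.15 at LPS 8 h and 0.76 at LPS 12 h on the log2 scale. *Xcr1*, a receptor of cross-presenting dendritic cells, had 0 reads in every M0 library and a mean of 5.89 CPM in wt and 4.77 CPM in *Treml4-/-* cells at LPS 8 h. It passed the filter only through LPS libraries, so that its call of higher was close to fixed by the filter. *Cxcr3*, the receptor of interferon-induced chemokines, changed by -2.59 and -2.79 on the log2 scale, a called fall at both times, and *Cxcr2*, with at most 1.15 CPM as a group mean, changed by -0.52 and -0.79 and was called lower with library-size scaling but not with median of ratios scaling or quantile normalization.

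Of 15 receptors for other chemoattractants 8 passed the filter, with 1 called higher and 6 lower at LPS 8 h and 2 higher and 4 lower at LPS 12 h. *Cmklr1*, the signalling receptor of the chemerin that *Ccrl2* presents, rose by 1.98 at LPS 8 h and 2.21 at LPS 12 h. *Ltb4r1*, a leukotriene B4 receptor, had a log2 fold change of 0.44 at LPS 8 h, below the minimum fold, and rose by 0.87 at LPS 12 h. The deepest falls were those of the oxysterol receptor *Gpr183* (-5.65 and then -5.43), the sphingosine 1-phosphate receptor *S1pr1* (-4.004 and -3.70) and the complement receptor *C5ar2* (-3.52 and -3.70). With median of ratios scaling 2 of these 8 were called higher and 4 lower at LPS 8 h, and 3 higher and 4 lower at LPS 12 h. The list's median log2 fold change was -1.20 at LPS 8 h and -1.94 at LPS 12 h.

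**Figure D4:**
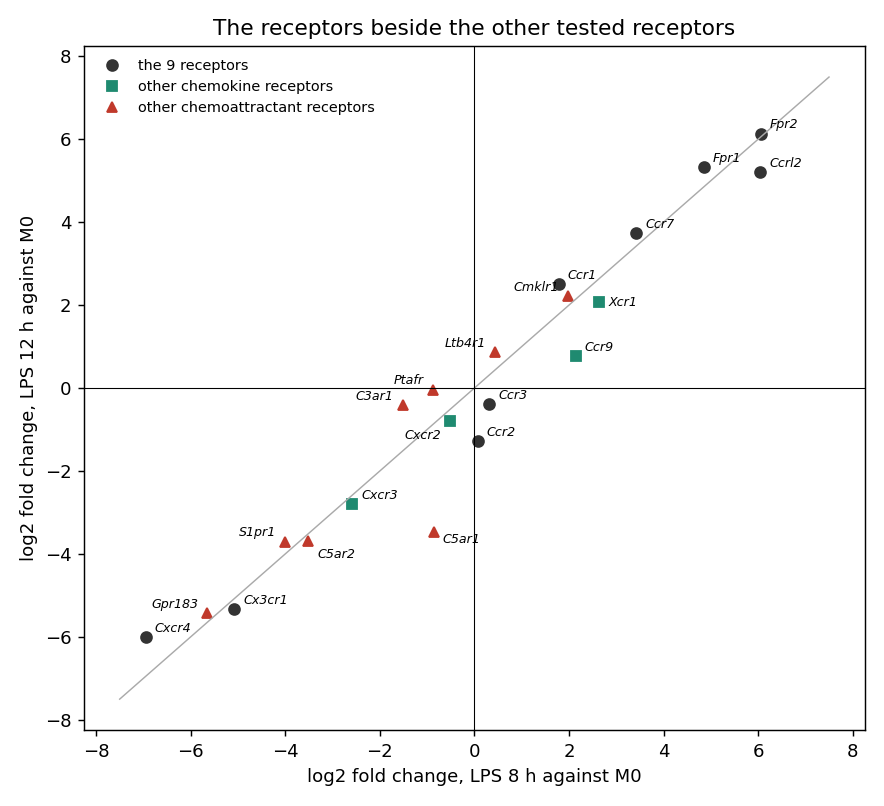
Log2 fold change at LPS 8 h (horizontal axis) and LPS 12 h (vertical axis) against the same M0 libraries, for the 9 receptors (circles), 4 other chemokine receptors (squares) and 8 other chemoattractant receptors (triangles), with the line of equal change. *Xcr1*, without reads at M0, is drawn at its fitted value on the log2(CPM + 1) scale, which is not a fold. *Fpr2*, *Ccrl2* and *Fpr1* lie at the upper right end and *Cxcr4* at the lower left end.

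Among 19 ligands of the 9 receptors, 15 passed the filter, of which 11 were called higher and 2 lower at LPS 8 h, and 10 higher and 4 lower at LPS 12 h. The largest rises at LPS 8 h were those of *Ccl5*, a ligand of *Ccr1* and *Ccr3*, by 9.93, of *Saa3*, a serum amyloid A protein, by 9.01, and of *Ccl2*, the ligand of *Ccr2*, by 8.23 on the log2 scale. *Ccl5* went from 1.99 to 3367 CPM in wt and from 2.12 to 2610 CPM in *Treml4-/-* cells. *Anxa1*, the source of annexin A1, fell by 0.86 and *Ccl6*, a ligand of *Ccr1*, by 0.71, and neither was called with median of ratios scaling, where 12 ligands were higher and 0 lower at LPS 8 h. The median log2 fold change of the ligands was 2.36 at LPS 8 h and 2.43 at LPS 12 h.

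Genes of signalling and desensitization downstream of the receptors were called at shares near those of all genes. Of 28 listed, 26 passed the filter, with 4 called higher and 14 lower at LPS 8 h and 4 higher and 17 lower at LPS 12 h, and a median log2 fold change of -0.88 and -0.83 that lay near the median of all genes. *Rgs1* and *Rgs14*, regulators that switch off G protein signals, rose by 1.37 and 1.21 at LPS 8 h, and *Pik3cg*, the phosphoinositide 3-kinase driven by chemoattractant receptors, rose by 0.96. *Rgs2* fell by 3.89, *Rgs10* by 2.96 and *Arrb1*, the arrestin that binds activated receptors, by 3.59. With median of ratios scaling 11 were called higher and 9 lower at LPS 8 h and 8 higher and 9 lower at LPS 12 h. The 6 genes just named kept their direction and call at LPS 8 h under that scaling and under quantile normalization, whereas *Pik3cg* had turned to -0.89 at LPS 12 h with library-size scaling and -0.02 with median of ratios scaling.

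The genotypes were compared at each time. Fold changes are wt relative to *Treml4-/-*. None of the 9 was called at M0, LPS 8 h or LPS 12 h, where 0.0993%, 0.0910% and 0.132% of all genes tested were called. The count over all genes rose from 11 to 599 at LPS 8 h without *Treml4-/-* LPS 8 h replicate 1, from 12 to 220 at M0 without wt M0 replicate 1 and from 16 to 79 at LPS 12 h without wt LPS 12 h replicate 1, and still 0 of the 9 receptors were called. An unadjusted limma p under 0.05 was reached by 3 of the 9 at M0, 4 at LPS 8 h and 3 at LPS 12 h, beside 3.35%, 21.0% and 7.55% of all genes. With voom it was reached by 2, 4 and 2 of the 9, beside 3.10%, 20.0% and 7.06% of all genes. The difference between the genotypes in their LPS response was called for none of the 9 at 8 h or 12 h, with 0.00827% of all genes called at either time. For this difference an unadjusted limma p under 0.05 was reached by 2 receptors at 8 h (*Ccr3* and *Ccrl2*) and 0 at 12 h. The shares over all genes were 6.67% and 3.82%. Voom called 0 of these differences in response, and 0 reached an unadjusted p under 0.05, beside 6.13% and 3.49% of all genes.

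The libraries of the 2 genotypes did not overlap for 4 of the 9 receptors at M0, 6 at LPS 8 h and 3 at LPS 12 h, against 28.8%, 51.9% and 43.1% of all genes tested. *Ccr1*, *Ccr2* and *Ccr3*, neighbours on chromosome 9, were at LPS 8 h higher in both *Treml4-/-* libraries than in both wt libraries. Their log2 fold changes were -0.67 ± 0.15 (SE, adjusted p = 0.125), -0.54 ± 0.23 (SE, adjusted p = 0.218) and -0.59 ± 0.17 (SE, adjusted p = 0.155). *Ccrl2*, *Cxcr4* and *Fpr1* were instead higher in both wt libraries, with log2 fold changes of 0.44 ± 0.11 (SE, adjusted p = 0.144), 0.19 ± 0.14 (SE, adjusted p = 0.447) and 0.19 ± 0.13 (SE, adjusted p = 0.413). None of these passed the test. The 95% intervals reached -1.01 for *Ccr1* and 0.69 for *Ccrl2*, so that differences of such size were not excluded by these data.

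At M0 *Ccr1* had a log2 fold change of -0.42 ± 0.15 (SE), *Fpr2* of 0.43 ± 0.17 (SE) and *Cx3cr1* of 0.33 ± 0.12 (SE), each without overlap of the libraries and each with an adjusted p of 1. Neutrophil markers, which were measured beside the formyl peptide receptors, summed to 46.9 to 131 CPM in wt and 117 to 155 CPM in *Treml4-/-* cells at M0. These ranges overlapped, and the part of the markers was not tested. After 12 h *Cxcr4* (0.38 ± 0.14 SE, adjusted p = 0.552) and *Ccrl2* (0.30 ± 0.11 SE, adjusted p = 0.553) were higher in both wt libraries, and *Ccr3* (-0.38 ± 0.17 SE, adjusted p = 0.624) was higher in both *Treml4-/-* libraries. *Ccrl2* was 1.36-fold higher in wt at LPS 8 h and 1.24-fold at LPS 12 h, and at M0 its means were nearly equal, at 7.45 CPM for wt (SD 0.958, n = 2) and 7.43 CPM for *Treml4-/-* cells (SD 0.530, n = 2). The interaction for *Ccrl2* at 8 h was 0.44 ± 0.16 (SE, adjusted p = 0.729) and that for *Ccr3* was -0.53 ± 0.23 (SE, adjusted p = 0.729). No gene of the other receptor, ligand or signalling lists was called between genotypes at any time.

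**Figure D5:**
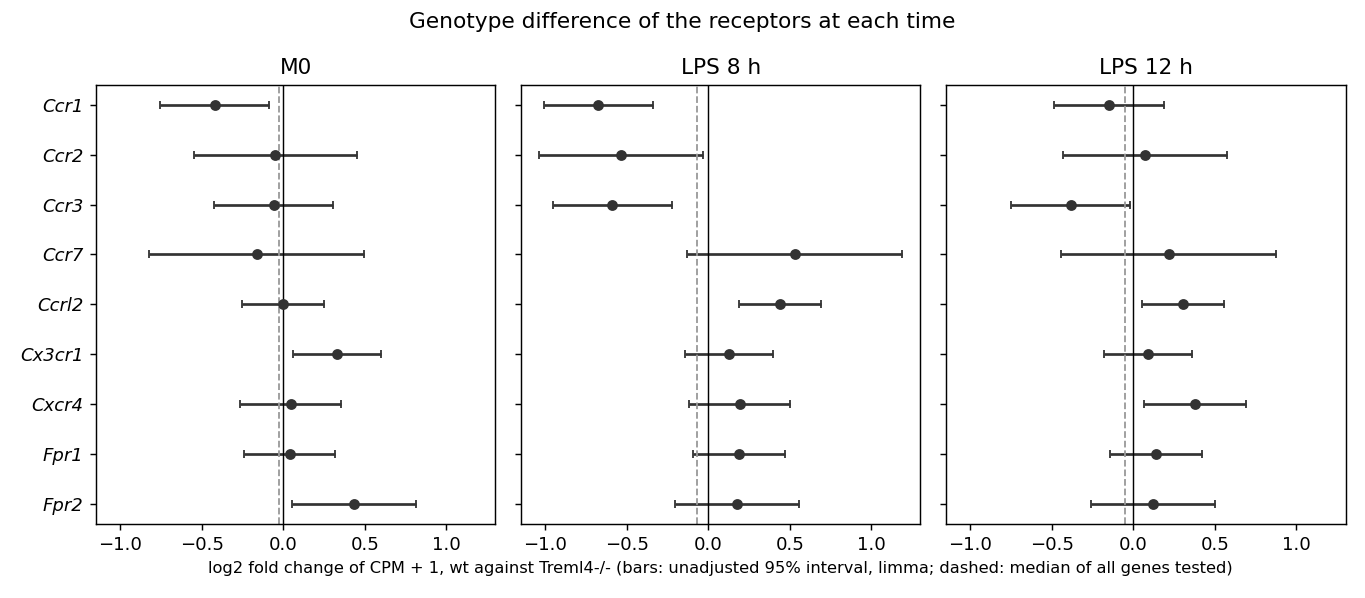
Log2 fold change of CPM + 1, wt against *Treml4-/-* (horizontal axis), for each receptor at M0, LPS 8 h and LPS 12 h, with unadjusted 95% intervals from limma and the median of all genes tested as a dashed line. All 27 values lie between -0.67 and 0.53, and none was called.

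The genes whose pattern was most like each receptor's were named by Pearson's r of log2(CPM + 1) over the 12 libraries, as a description, since the libraries share 3 times and the same depth scaling. *Fpr1* was most like *Saa3* (r = 0.999) and *Atp1b3* (r = 0.999), and *Fpr2* was most like *Zcchc2* (r = 0.998) and *Cd86* (r = 0.998). *Ccrl2* was nearest to *Themis2* (r = 0.999) and *Rab20* (r = 0.999), and *Ccr7* to *Vwa3b* (r = 0.995) and *Traf2* (r = 0.994). The falling receptors were nearest to *Pithd1* (r = 0.998) and *Cd97* (r = 0.998) for *Cxcr4*, and to *Bmyc* (r = 0.999) and *Ldlrad3* (r = 0.999) for *Cx3cr1*. *Ccr1* was most like *Apol9a* (r = 0.988) and *Tbc1d9* (r = 0.987). The likeness was weaker for *Ccr2*, with *Top2b* (r = 0.969) and *Dse* (r = 0.963), and weakest for *Ccr3*, with *Dhrs9* (r = 0.905) and *Camk2d* (r = 0.877).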

How the data were processed

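RNA-seq libraries of BMDM from wt and *Treml4-/-* mice at M0, LPS 8 h and LPS 12 h were analysed, with 2 biological replicates per group. The kit was stranded with poly(A) selection and reads were paired-end, 126 bp. Per the labels, the authors aligned reads with STAR to mm10. Per the methods, reads were counted on genes with Subread. The annotation and the use of strand in counting are not given in the sources used here. The deposited values are log2 CPM with a prior of 0.25 reads. Whole reads were recovered for 100% of values, within 0.1 read, and log2 CPM recomputed from them differed by at most 5.2e-14. Replicates differed by more than sampling noise (chi-square of 12 or more per degree of freedom).

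CPM were tested as log2(CPM + 1) in limma 3.58.1 (R 4.3.3), with 1 mean per group, a trend in the prior variance and all 12 libraries, over the 12086 genes that reached 1 CPM in 2 or more libraries. LPS contrasts are means over genotypes. P-values were adjusted by Benjamini-Hochberg, and a call needed an adjusted p under 0.05 and a fold of at least 1.4. The test was checked on simulated libraries for the LPS 8 h contrast only, with few genes changed, unlike the wide changes in these data. Tables were made with pandas 2.3.3 and numpy 2.4.6 in Python 3.11.15, with GENCODE M21 positions, exon lengths and RefSeq promoters. Named were the 9 receptors, the 3 largest rises and falls per list, and the 2 genes most like each receptor. Marker genes singled out, and *C5ar1* and the others drawn only in a plot, fall outside that rule and were chosen with values in view. The receptors and lists were chosen with earlier results of these data known. Alternatives were a pseudocount of 0.1, the deposited log2 CPM, no filter or one at 5 CPM, median of ratios scaling, quantile normalization, voom on recovered reads, replicate blocks, no minimum fold, only the groups compared and leaving out each library. A receptor of a related list is not reported here.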

Additional observations from a re-analysis of the deposited data

How the results depend on the processing

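Of 1621 values for the 9 receptors under the alternatives, 1601 kept their side of the threshold and 19 passed it only under the alternative. In addition 1 value (*Ccr2* at LPS 12 h with median of ratios scaling) no longer passed, and 0 of the called values changed sign. Values that were not called could change sign, such as *Ccr2* at LPS 8 h (-0.06 to 0.20 on leaving out each library in turn). Counts of called receptors moved from 7 to 9 at LPS 8 h with median of ratios scaling or quantile normalization and to 8 with no minimum fold, from 8 to 9 at LPS 12 h with a pseudocount of 0.1, the deposited log2 CPM, voom or no minimum fold and to 7 with median of ratios scaling, and from 5 to between 4 (filter at 5 CPM, which leaves out Ccr3) and 7 (no minimum fold, or without wt LPS 12 h replicate 1) between the LPS times, and stayed at 0 between genotypes under each alternative. Leaving out each library in turn gave 7 at LPS 8 h and 8 at LPS 12 h. The labels do not state whether same-numbered replicates were paired across groups. The correlations of their differences over all genes ran from -0.272 to 0.462, which does not settle it. With the replicate block 7, 8 and 5 receptors were called in the LPS comparisons and 0 between genotypes, so that the block changed no call of a receptor. With 2 replicates per group the p-values rest on a spread pooled over groups, and where a library is left out the lone sample is assumed to vary like the rest. *Ccr7* at M0 rests on 4 to 14 reads, which limits its fold change. Over all genes, 2070 called higher and 7225 lower at LPS 8 h became 3831 and 3702 with median of ratios scaling and 3362 and 4342 with quantile normalization, and 1965 and 7284 at LPS 12 h became 4041 and 3843, or 3594 and 4338. With no minimum fold 7291 genes, in place of 3885, differed between the LPS times. Genotype calls over all genes at M0, LPS 8 h and LPS 12 h numbered 12, 11 and 16, and 7, 5 and 8 with only the groups compared, 11, 7 and 7 with no filter, and 11, 11 and 10 with voom. Leaving out each library gave 7 to 220, 8 to 599 and 6 to 79.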
